A study of Mus musculus with 16 samples.

Results

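Whether the effect of a p38α-lox allele depended on the PyMT oncogene was measured as an interaction, the difference between p38a_MMTV-Cre_PyMT and MMTV-Cre_PyMT arrays minus the difference between p38a_MMTV-Cre and MMTV-Cre arrays. It was computed for each gene from 1 probe set, the one with the highest mean signal, and used 16 of the 16 arrays of the series. Luminal cells of the mouse mammary gland were sorted by flow cytometry, and their RNA was hybridised to Affymetrix arrays, 4 for each genotype. MMTV-Cre and p38a_MMTV-Cre mice were 9 weeks old, and MMTV-Cre_PyMT and p38a_MMTV-Cre_PyMT mice were 6 weeks old. All 4 groups carried MMTV-Cre, both p38a groups added the p38a-lox allele, and both PyMT groups added MMTV-PyMT. PyMT and age cannot be told apart in this design, so "with PyMT" below also means the younger mice. The labels do not say that each array is a separate animal, so the p-values measure only the spread between these samples. Below, p38a_MMTV-Cre and p38a_MMTV-Cre_PyMT arrays are called lox arrays and the others control arrays. Replicate numbers are not from the labels. They give the order of arrays within each group and pair no arrays between groups.

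p38α, encoded by Mapk14, is a stress-activated protein kinase that responds to inflammatory cytokines, growth factors and cellular stress through the upstream kinases MKK3 and MKK6. The MMTV promoter drives transgenes mainly in mammary epithelium, where Cre recombinase removes the DNA between lox sites and the polyoma middle T antigen (PyMT) activates Src, PI3 kinase and Ras signalling and gives rise to mammary tumours. An interaction above 0 means that the lox-minus-control difference was more positive with PyMT than without it, and one below 0 the reverse. Values are log2 signals made by robust multi-array averaging, which are relative within a probe set, and errors after ± are standard errors of the interaction. In bulk samples, fewer cells of a type and less RNA per cell cannot be told apart.

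The arrays were not uniform in quality. Replicate 2 of p38a_MMTV-Cre and replicate 4 of MMTV-Cre_PyMT had the lowest median correlation with the other arrays (0.934 each, against 0.946 to 0.972) and the narrowest spread of values (SD 1.90 and 1.89, against 1.98 to 2.05). Genes were split by mean signal into 5 groups of 2882, and the median interaction ran from −0.11 in the group of lowest signal to 0.17 in the group of highest signal, as the plot of median interaction by signal level shows. Without these 2 arrays it was 0.02 at both ends. The sample titles also carry numbers that no source used here explains, and a wide gap splits them into lower numbers (9 arrays) and higher numbers (7 arrays), called title ranges below. Every group had arrays in both ranges. The higher range held only 1 array of MMTV-Cre_PyMT. Fitted separately in each range, which share no array, the interaction had the same sign for 36.7% of 14410 genes. The 2 estimates correlated across genes at Pearson's r = −0.199 and Spearman's rho = −0.266. Both arrays of lowest correlation are in the lower range. Without them the ranges shared the sign for 41.6% of genes, with r = −0.182 and rho = −0.238. List medians are therefore given with all arrays and, for most lists, within each title range and without the 2 arrays. All 11 luminal markers, among them Krt8, Krt18 and Epcam, were above the filter on low signal, and their mean lay between 10.24 and 11.31 over the 16 arrays.

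**Figure D1:**
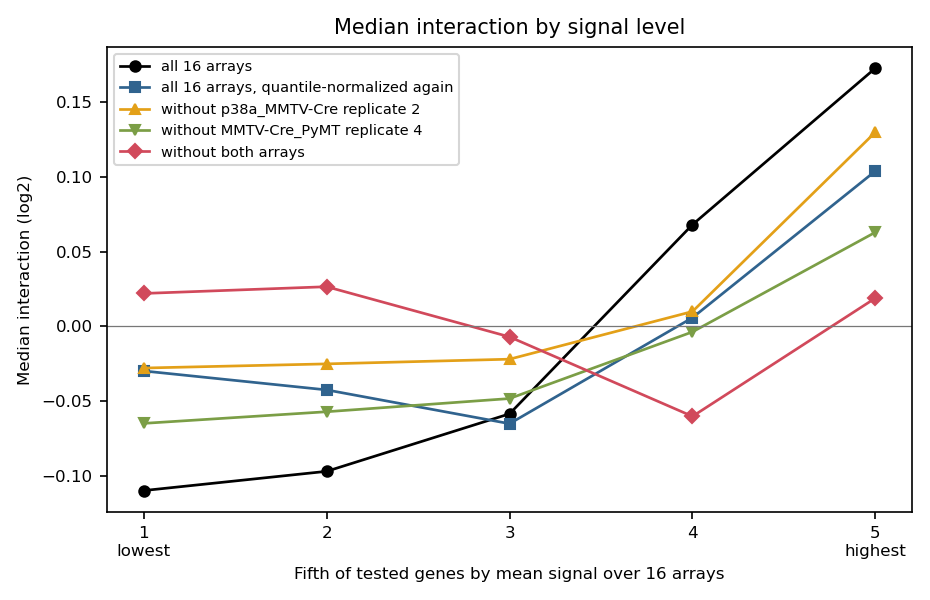
Median interaction (log2) in 5 groups of 2882 tested genes ordered by mean signal over the 16 arrays, with all arrays, after a second quantile normalization, and without either or both of the arrays of lowest correlation. With all 16 arrays the median runs from −0.11 to 0.17, and without both arrays it is 0.02 in the first and last groups.

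No gene passed the test. By limma, 0 of 14410 genes (0%) had a Benjamini-Hochberg adjusted p below 0.05, and 406 genes (2.82%) had an unadjusted p under 0.05, where 720.5 would be counted if p-values were evenly spread. Of these, 146 (1.01%) had an interaction above 0 and 260 (1.8%) below 0. Over all tested genes the estimate was above 0 for 44.8%, with a median of −0.04. The median standard error was 0.311, and a lone gene with that error would have needed an interaction of 2.23 to be called. Interactions larger than 1 in either direction were estimated for 386 genes and larger than 2 for 23. The adjusted p by limma was 0.992 for every gene named below, so all values that follow are estimates of genes that did not pass the test. Many were named for a small p, which favours groups of arrays that lie apart. How many of all tested genes have lox arrays wholly apart from other arrays in 1 background was not counted. Such separation is therefore only described for the genes named. The lists of pathway genes are described by their counts and medians, to be read beside 44.8% and −0.04, and, where a list's mean signal is over 7.78, beside the 0.17 of the 2882 genes of highest signal. Of the lists described below, those of the unfolded protein response, COPII export, hypoxia, glycolysis, proteasome and amino acid stress genes have such a mean. So do those of ribosomal, respiratory chain, immediate early, milk, mammary transcription factor and antioxidant genes. Most of those 2882 genes had an estimate above 0, as their median was 0.17. The 44.8% of all genes is therefore a low reference for counts in these lists. That median of 0.17 became 0.37 in the lower title range, −0.12 in the higher and 0.02 without the 2 arrays of lowest correlation. Lists of p38 pathway, cell cycle, cholesterol synthesis, NF-kB and luminal progenitor genes have a mean signal between 6.39 and 7.78. The 2882 genes of that signal are their closer reference. Their median was 0.07 with all arrays, 0.38 in the lower title range, −0.32 in the higher and −0.06 without the 2 arrays.

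**Figure D2:**
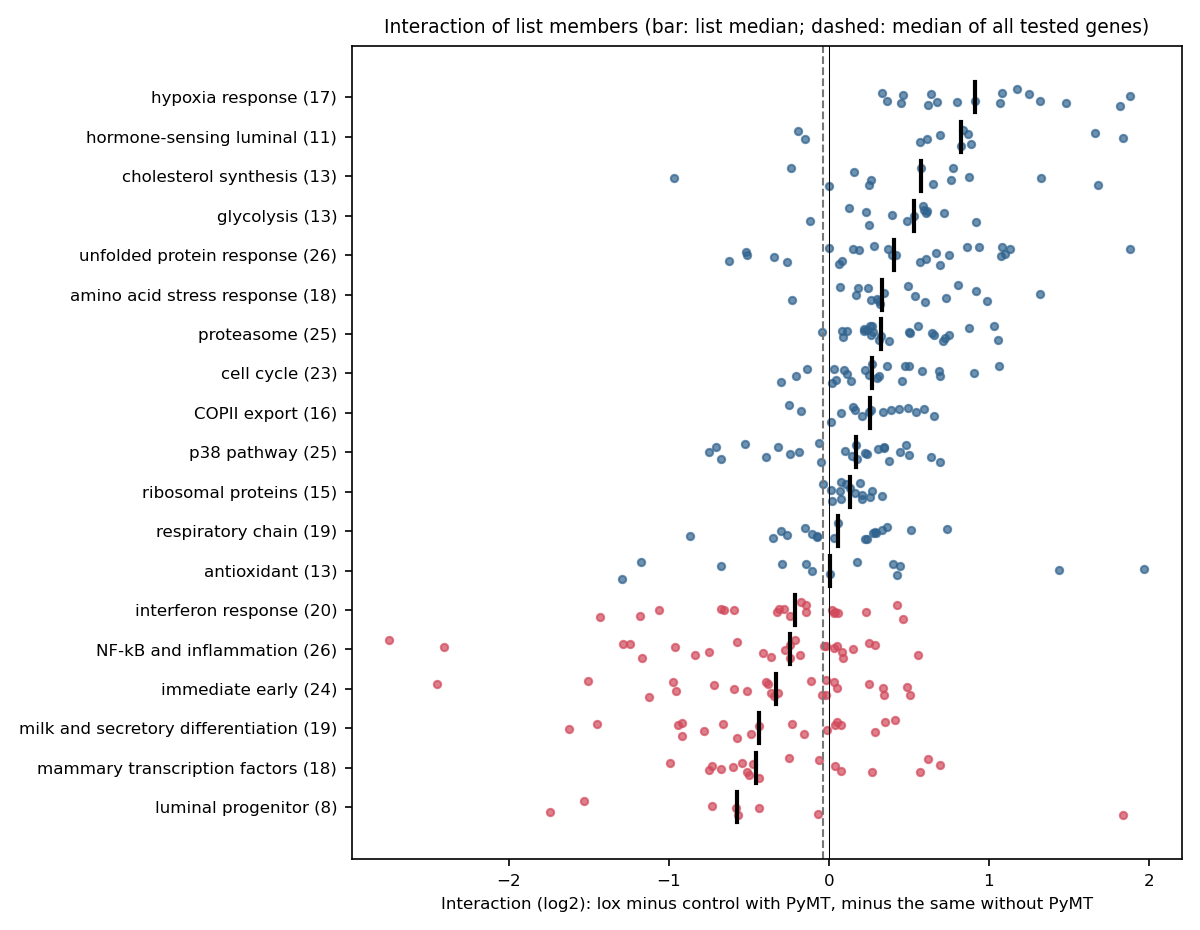
Interaction (log2) of each tested member of 19 gene lists, 1 point per gene, with the number of tested genes in brackets, the list median as a black bar and the median of all tested genes as a dashed line at −0.04. With all 16 arrays hypoxia genes lie highest, with a median of 0.92 and 17 of 17 members above 0, and luminal progenitor genes lowest, with a median of −0.57.

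The targeted gene itself is described first. Signals of Mapk14 were 7.11, 7.43, 5.55 and 6.02 on MMTV-Cre arrays, 6.79, 6.37, 7.91 and 8.16 on p38a_MMTV-Cre arrays, 7.17, 7.12, 7.64 and 6.88 on MMTV-Cre_PyMT arrays and 7.09, 7.25, 7.34 and 7.24 on p38a_MMTV-Cre_PyMT arrays. Without PyMT, replicates 3 and 4 labelled p38a_MMTV-Cre were the highest of all 16 arrays and replicates 3 and 4 labelled MMTV-Cre the lowest, which goes against the labels for a deleted gene. All 4 arrays of those replicates are in the higher title range. With PyMT the lox and control arrays overlapped. The interaction of Mapk14 was −0.75 ± 0.588, with 0.80 in the lower title range, −2.60 in the higher one and −1.17 without the 2 arrays of lowest correlation. With single arrays left out it ran from −1.06 without p38a_MMTV-Cre replicate 2 to −0.42 without MMTV-Cre replicate 3, with −0.47 without p38a_MMTV-Cre replicate 4. All 6 Mapk14 probe sets had an estimate below 0, from −0.75 to −0.10. No source used here places these probe sets inside or outside the deleted part of the gene, so they do not check the deletion. Every direction below rests on arrays labelled p38a_MMTV-Cre, to which this applies.

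Around the kinase, 15 of 25 tested genes of the p38 pathway had an estimate above 0, with a median of 0.17 (0.30 in the lower title range, −0.24 in the higher, 0.01 without the 2 arrays). The 2882 genes of mean signal 6.39 to 7.78, as this list has, had 0.07, 0.38, −0.32 and −0.06 in the same order. By role, 3 of 7 activators, 4 of 6 effector kinases, 2 of 3 phosphatases and 4 of 6 target genes were above 0. Tab2, an adaptor that activates the kinase TAK1, had the smallest p of the list and an interaction of −0.67 ± 0.255. Map2k6, which encodes MKK6, was estimated at −0.70 ± 0.365, and Mknk2, an effector kinase that phosphorylates the translation factor eIF4E, at −0.52 ± 0.338. Signals of Map2k6 on MMTV-Cre arrays were 3.585 to 4.21, near the filter on low signal of 3.67. Runx1, a transcription factor of luminal cells, was estimated at 0.27 ± 0.356, and its 6 probe sets ran from −0.70 to 0.27. The mean of the Runx1 probe sets gave −0.12, and the higher title range −0.40. Dropping 1 array at a time gave 0.11 without p38a_MMTV-Cre_PyMT replicate 3 to 0.51 without MMTV-Cre_PyMT replicate 3, with 0.11 without MMTV-Cre replicate 1, 0.15 without MMTV-Cre_PyMT replicate 4 and 0.18 without MMTV-Cre_PyMT replicate 2.

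Genes of the unfolded protein response had mostly positive interactions. This response senses unfolded protein in the endoplasmic reticulum through IRE1, PERK and ATF6 and raises chaperones that fold proteins and enzymes that clear them. Of its 26 tested genes 21 had an estimate above 0, 4 of them with an unadjusted p under 0.05 and 0 of the 5 others, and the median was 0.41. The 11 chaperones were all above 0 with a median of 0.67. The sensors had a median of 0.00 over 3 genes, and the degradation genes 0.13 over 6. The list median was 0.48 in the lower title range and 0.28 in the higher, and 0.29 without the 2 arrays of lowest correlation (17 of 26 above 0). Leaving out 1 array gave 0.27 without MMTV-Cre_PyMT replicate 4 to 0.58 without MMTV-Cre_PyMT replicate 2.

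Pdia6, a disulfide isomerase that rearranges bonds between cysteines, read 9.19, 9.54, 9.95 and 8.87 on MMTV-Cre arrays, 8.84, 8.32, 8.68 and 8.97 on p38a_MMTV-Cre arrays, 9.08, 9.04, 9.63 and 8.47 on MMTV-Cre_PyMT arrays and 9.55, 9.33, 9.44 and 9.46 on p38a_MMTV-Cre_PyMT arrays. Without PyMT the lox arrays overlapped the controls at 1 control array, replicate 4, and with PyMT the control replicate 4 was the lowest while replicate 3 was the highest. Its interaction was 1.08 ± 0.348, and 0.41 in the higher title range. Sdf2l1, a component of chaperone complexes, was estimated at 1.89 ± 0.682 (1.12 without the 2 arrays), and Hsp90b1, the endoplasmic reticulum form of HSP90, at 1.13 ± 0.5. Transcription factors of the response did not share a sign, with 2 of 3 estimates above 0.

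Promoters of this list often held the endoplasmic reticulum stress element, to which ATF6 and XBP1 bind with the factor NF-Y. The letters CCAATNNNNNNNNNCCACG, searched on both strands in the 250 bases before each annotated start, were found in 9 of 22 list members with a RefSeq promoter window (40.9%) and in 18 of 11518 tested genes (0.156%). The 150 bases before the start are shown for 4 holders to set the element beside the interaction, from RefSeq on GRCm38.p6, 5′ to 3′ on the gene's strand, with the element in capitals. Pdia6 and Hsp90b1 were named by their p, whereas Hspa5, the chaperone BiP (0.87 ± 0.476), and Syvn1, a ubiquitin ligase and the holder with a negative estimate (−0.62 ± 0.324), were chosen after their values were seen.
Pdia6, chr12:17266439-17266588, plus strand: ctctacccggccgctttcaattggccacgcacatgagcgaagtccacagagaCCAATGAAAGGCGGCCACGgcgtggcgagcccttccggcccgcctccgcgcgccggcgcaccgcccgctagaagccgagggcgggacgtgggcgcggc
Hsp90b1, chr10:86705445-86705594, minus strand: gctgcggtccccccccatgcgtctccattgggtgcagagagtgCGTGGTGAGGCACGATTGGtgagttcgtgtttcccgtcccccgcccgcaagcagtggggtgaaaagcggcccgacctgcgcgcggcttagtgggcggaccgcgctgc
Hspa5, chr2:34771940-34772089, plus strand: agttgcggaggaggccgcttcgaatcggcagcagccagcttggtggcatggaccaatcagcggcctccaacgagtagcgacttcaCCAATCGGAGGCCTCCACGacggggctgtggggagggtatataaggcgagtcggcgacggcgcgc
Syvn1, chr19:6046426-6046575, plus strand: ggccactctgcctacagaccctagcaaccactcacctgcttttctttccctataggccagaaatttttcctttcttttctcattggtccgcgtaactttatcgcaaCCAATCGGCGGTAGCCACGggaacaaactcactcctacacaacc
The element lies on the gene's strand in Pdia6, Hspa5 and Syvn1 and on the opposite strand in Hsp90b1. Among list members 8 of 9 holders had an estimate above 0 with a median of 0.61, and 9 of 13 members without the element had one above 0 with a median of 0.19. Outside the list, 9 tested genes held the element, of which 4 had an estimate above 0, with a median of −0.06. A match is a description of these letters, and binding was not measured. A list drawn up from known genes of a response can hold its element for that reason. The shares here and for the elements below therefore describe the lists only.

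Export from the endoplasmic reticulum in COPII vesicles is the next step of secretion, and Sar1a, the GTPase that starts assembly of the coat, had the smallest p of all genes with a positive interaction. Its signals were 9.35, 9.48, 9.61 and 9.45 on MMTV-Cre arrays, 9.09, 8.81, 8.87 and 8.86 on p38a_MMTV-Cre arrays, 9.13, 9.40, 9.10 and 8.88 on MMTV-Cre_PyMT arrays and 9.27, 9.36, 9.02 and 9.25 on p38a_MMTV-Cre_PyMT arrays. All 4 lox arrays were below all 4 controls without PyMT, and lox and control arrays overlapped with PyMT. The interaction was 0.66 ± 0.183, with 0.64 for the lower and 0.70 for the higher title range and 0.55 without the 2 arrays. A second Sar1a probe set of lower mean signal gave 0.07. Of 16 tested COPII genes 14 had an estimate above 0 and the median was 0.26, with 0.40 in the lower title range and 0.07 in the higher. Without the 2 arrays of lowest correlation the median was −0.02 and 7 of 16 were above 0, and without MMTV-Cre_PyMT replicate 4 alone it was 0.06. Lman1, a cargo receptor for glycoproteins, was estimated at 0.59 ± 0.381 with all arrays, −0.20 in the higher title range and 0.17 without the 2 arrays. Sec13, of the outer coat, was estimated at 0.49 ± 0.305. Without MMTV-Cre_PyMT replicate 4 alone, Lman1 had 0.32 and Sec13 0.31.

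**Figure D3:**
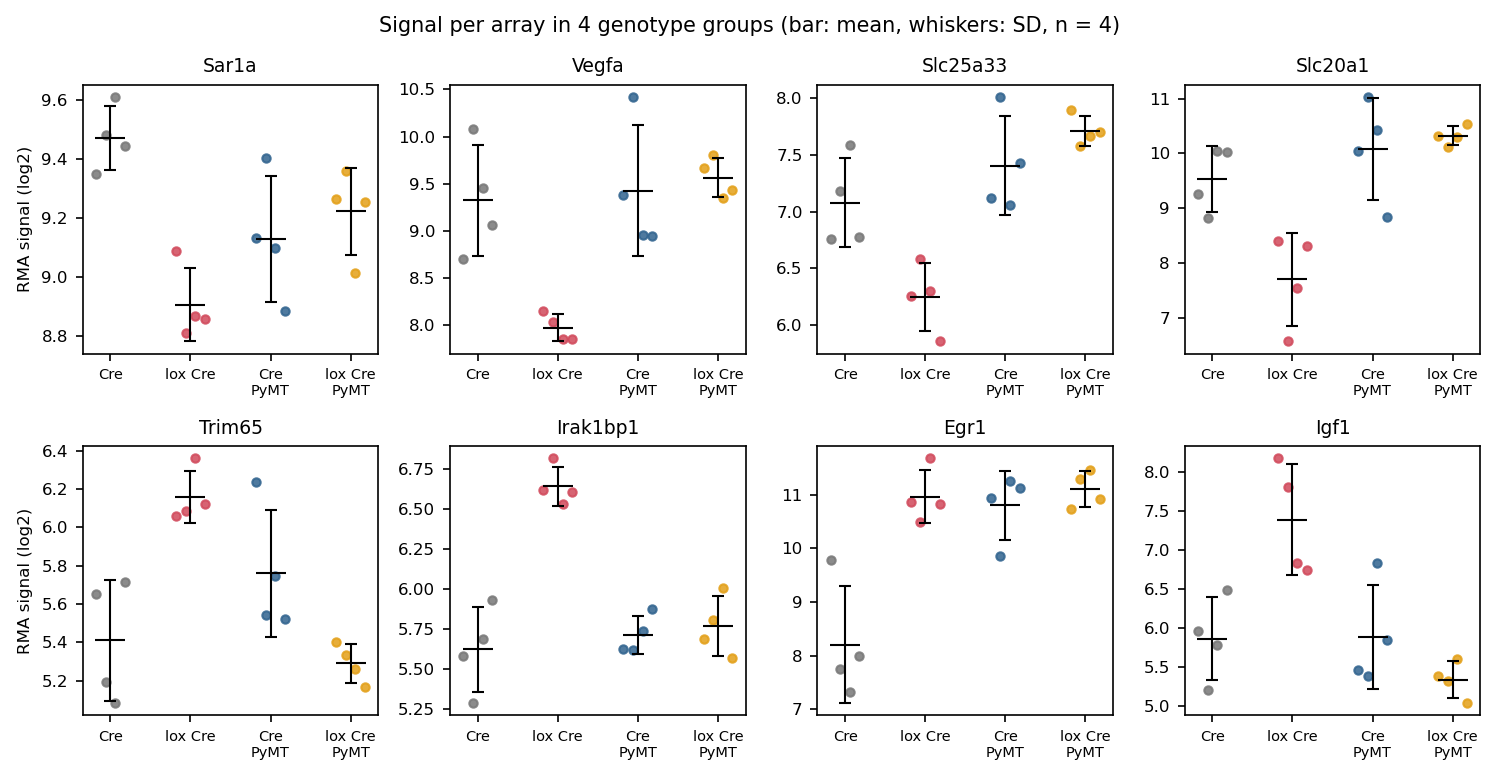
RMA signal (log2) on each array for 4 genes with a positive interaction (upper row) and 4 with a negative one (lower row), with the mean and SD of 4 arrays per group; Cre and lox Cre stand for MMTV-Cre and p38a_MMTV-Cre, and PyMT marks the groups with the oncogene. For Sar1a the 4 lox arrays without PyMT lie below their controls, and for Irak1bp1 above them, while with PyMT lox and control arrays overlap.

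Genes of the response to low oxygen had the highest median of the 19 lists with all 16 arrays, though hormone-sensing genes had a higher one in the lower title range, without the 2 arrays of lowest correlation and on unlogged signal, and cell cycle genes in the lower title range. HIF-1, the factor that low oxygen stabilises, turns on genes for blood vessel growth, glycolysis and mitochondrial turnover. All 17 tested members had an estimate above 0, and the median was 0.92. It was 1.07 in each title range, and 0.44 with 15 of 17 above 0 without the 2 arrays of lowest correlation. With single arrays left out it ran from 0.61 without MMTV-Cre_PyMT replicate 4 to 1.29 without MMTV-Cre_PyMT replicate 2. The list mean per array was 7.93 to 8.82 on MMTV-Cre, 7.47 to 8.02 on p38a_MMTV-Cre, 7.75 to 9.59 on MMTV-Cre_PyMT and 8.27 to 9.19 on p38a_MMTV-Cre_PyMT arrays, with overlap between lox and control arrays in both backgrounds.

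Vegfa, which encodes the main growth factor of blood vessels, read 8.70, 10.08, 9.46 and 9.06 on MMTV-Cre arrays, 8.15, 8.03, 7.86 and 7.86 on p38a_MMTV-Cre arrays, 9.38, 10.42, 8.96 and 8.94 on MMTV-Cre_PyMT arrays and 9.67, 9.80, 9.35 and 9.44 on p38a_MMTV-Cre_PyMT arrays. The 4 p38a_MMTV-Cre arrays were the lowest of all 16, and with PyMT lox and control arrays overlapped. The interaction was 1.49 ± 0.443, with 1.45 and 1.84 in the lower and higher title ranges and 1.34 without the 2 arrays. A second Vegfa probe set gave 1.24. Adm, which encodes the vasodilator adrenomedullin, was estimated at 1.25 ± 0.547, and Bnip3, a mitophagy receptor, at 1.82 ± 0.884.

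Glycolysis genes had the same sign. Of 13 tested transporters and enzymes 12 had an estimate above 0, with a median of 0.53 (0.55 in the lower and 0.47 in the higher title range, 0.38 without the 2 arrays). Ldha, the lactate dehydrogenase subunit that turns pyruvate to lactate, read 11.91, 12.05, 12.26 and 11.84 on MMTV-Cre arrays, 11.43, 11.55, 11.38 and 11.66 on p38a_MMTV-Cre arrays, 11.98, 12.17, 12.11 and 11.66 on MMTV-Cre_PyMT arrays and 11.91, 12.07, 11.97 and 12.05 on p38a_MMTV-Cre_PyMT arrays. Its 4 lox arrays lay below all controls without PyMT and within the range of the controls with PyMT. The interaction of Ldha was 0.53 ± 0.19. Tpi1, triose phosphate isomerase, was estimated at 0.61 ± 0.232, and Pfkl, a phosphofructokinase subunit, at 0.59 ± 0.259.

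The core letters of the hypoxia element, ACGTG on either strand, were present in 10 of 15 hypoxia members (66.7%) and 8 of 13 glycolysis members (61.5%), against 23.4% of tested genes. One member of each list is shown, with ACGTG and its reverse complement in capitals; where both strands match, the letters overlap as CACGTG.
Bnip3, chr7:138909507-138909656, minus strand: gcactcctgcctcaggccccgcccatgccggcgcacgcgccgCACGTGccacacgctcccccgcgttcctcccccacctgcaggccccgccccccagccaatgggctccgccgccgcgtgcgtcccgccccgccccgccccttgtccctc
Ldha, chr7:46845654-46845803, plus strand: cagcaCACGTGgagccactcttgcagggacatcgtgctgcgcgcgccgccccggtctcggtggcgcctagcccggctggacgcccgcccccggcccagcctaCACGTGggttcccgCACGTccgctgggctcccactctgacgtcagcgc
The median was 0.86 for 10 hypoxia holders and 1.07 for 5 others, and 0.44 for 8 glycolysis holders and 0.61 for 5 others.

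Protein degradation and biosynthesis lists were also mostly above 0. The proteasome, the barrel that degrades ubiquitin-tagged proteins, had 24 of 25 tested subunits above 0 and a median of 0.32, with 5 at an unadjusted p under 0.05. Psmd12, Psmd2 and Psmd11, all of the regulatory cap, were estimated at 0.88 ± 0.334, 0.66 ± 0.253 and 0.75 ± 0.306. Without MMTV-Cre_PyMT replicate 4, Psmd2 had 0.44 and Psmd11 0.47. The proteasome median was 0.70 in the lower title range, 0.01 in the higher and 0.18 without the 2 arrays. The list mean of MMTV-Cre_PyMT replicate 4 was 9.19, below the 9.65 to 10.14 of the 15 other arrays.

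The amino acid stress response, driven by ATF4 when amino acids run short, had 17 of 18 estimates above 0 and a median of 0.33 (0.14 in the lower title range, 0.82 in the higher, 0.42 without the 2 arrays). Gars, the glycyl-tRNA ligase, was estimated at 0.92 ± 0.457 (0.53 without the 2 arrays) and Trib3, a pseudokinase induced by ATF4, at 0.73 ± 0.479 (0.47 without MMTV-Cre replicate 3). Ddit4, an inhibitor of mTORC1 in both this list and the hypoxia list, was estimated at 1.32 ± 0.776, and at −0.41 in the higher title range, 0.80 without p38a_MMTV-Cre replicate 2, 0.86 without MMTV-Cre replicate 2 and 0.67 without the 2 arrays. Cholesterol synthesis had 11 of 13 estimates above 0 and a median of 0.57, with 0.66 and 0.34 in the lower and higher title ranges, 0.04 without the 2 arrays and −0.10 when limma weighted the arrays by their quality. Leaving out p38a_MMTV-Cre replicate 2 alone gave 0.11.

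Msmo1, a sterol methyl oxidase of this pathway, read 5.59, 6.22, 7.66 and 7.17 on MMTV-Cre arrays, 5.69, 6.11, 5.32 and 5.39 on p38a_MMTV-Cre arrays, 5.11, 5.64, 5.43 and 5.03 on MMTV-Cre_PyMT arrays and 6.28, 5.32, 5.88 and 6.32 on p38a_MMTV-Cre_PyMT arrays. MMTV-Cre replicates 3 and 4 were the highest of all arrays, and lox and control arrays overlapped in both backgrounds. The interaction was 1.68 ± 0.525, with 0.55 in the lower title range and 2.73 in the higher. Cyp51, the lanosterol demethylase, and Fdft1, squalene synthase, were estimated at 1.33 ± 0.639 and 0.76 ± 0.382, and without the 2 arrays at 0.73 and 0.50. Cyp51 had 0.86 without MMTV-Cre replicate 3.

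Ribosomal protein genes had 14 of 15 estimates above 0 but a median of 0.13, below the 0.17 of all genes of the highest signal group. It was 0.17 and 0.04 in the lower and higher title ranges, 0.05 without the 2 arrays and 0.01 without MMTV-Cre_PyMT replicate 4. Rps9 had the smallest p of that list, with 0.33 ± 0.193, and 0.20 without that replicate. Respiratory chain genes had 11 of 19 above 0 and a median of 0.06, also below 0.17, with 0.42 for lower and −0.17 for higher title numbers. It was 0.01 without the 2 arrays and −0.05 without p38a_MMTV-Cre replicate 1. Their genes Sdhd and Atp5b, of complex II and the ATP synthase, were estimated at −0.87 ± 0.514 and 0.51 ± 0.361. Without MMTV-Cre_PyMT replicate 4 they had −0.43 and 0.19.

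For cell cycle genes the sign depended on which arrays were used. Of 23 tested genes 20 had an estimate above 0, with a median of 0.27, but the median was 1.26 in the lower title range and −0.48 in the higher. It was −0.09 without the 2 arrays of lowest correlation, −0.07 without p38a_MMTV-Cre replicate 2 alone and −0.19 with array weights. Without p38a_MMTV-Cre replicate 4 it was 0.70. The 2882 genes of mean signal 6.39 to 7.78, as this list has, had 0.38 in the lower title range and −0.32 in the higher. The list mean was 6.30 and 5.80 on p38a_MMTV-Cre replicates 1 and 2 and 7.06 and 7.58 on replicates 3 and 4. It was 7.32 and 7.24 on MMTV-Cre replicates 1 and 2 and 5.92 and 6.74 on replicates 3 and 4, so without PyMT the order of lox and control arrays was opposite in the 2 title ranges. Pcna, the sliding clamp of DNA polymerase, was estimated at 1.07 ± 0.69, 0.46 without p38a_MMTV-Cre replicate 2 and 0.25 without the 2 arrays. On arrays of the higher title range Pcna read 8.272 and 8.849 for MMTV-Cre and 8.715 and 9 for p38a_MMTV-Cre. With PyMT it read 9.045 on the control array there and 9.194 and 9.595 on the lox arrays. In that range the lox arrays thus averaged higher in both backgrounds. Mcm6, a subunit of the replicative helicase, was estimated at 0.91 ± 0.511, and at 0.54 without the 2 arrays. Aurkb, a mitotic kinase, was estimated at 0.69 ± 0.795, with −0.48 in the higher title range, −0.19 with array weights and 0.22 without the 2 arrays. Aurkb ran from 0.30 without MMTV-Cre replicate 2 to 1.18 without p38a_MMTV-Cre replicate 4, and was 0.37 without p38a_MMTV-Cre replicate 1 or 2 and 0.45 without p38a_MMTV-Cre_PyMT replicate 4.

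**Figure D4:**
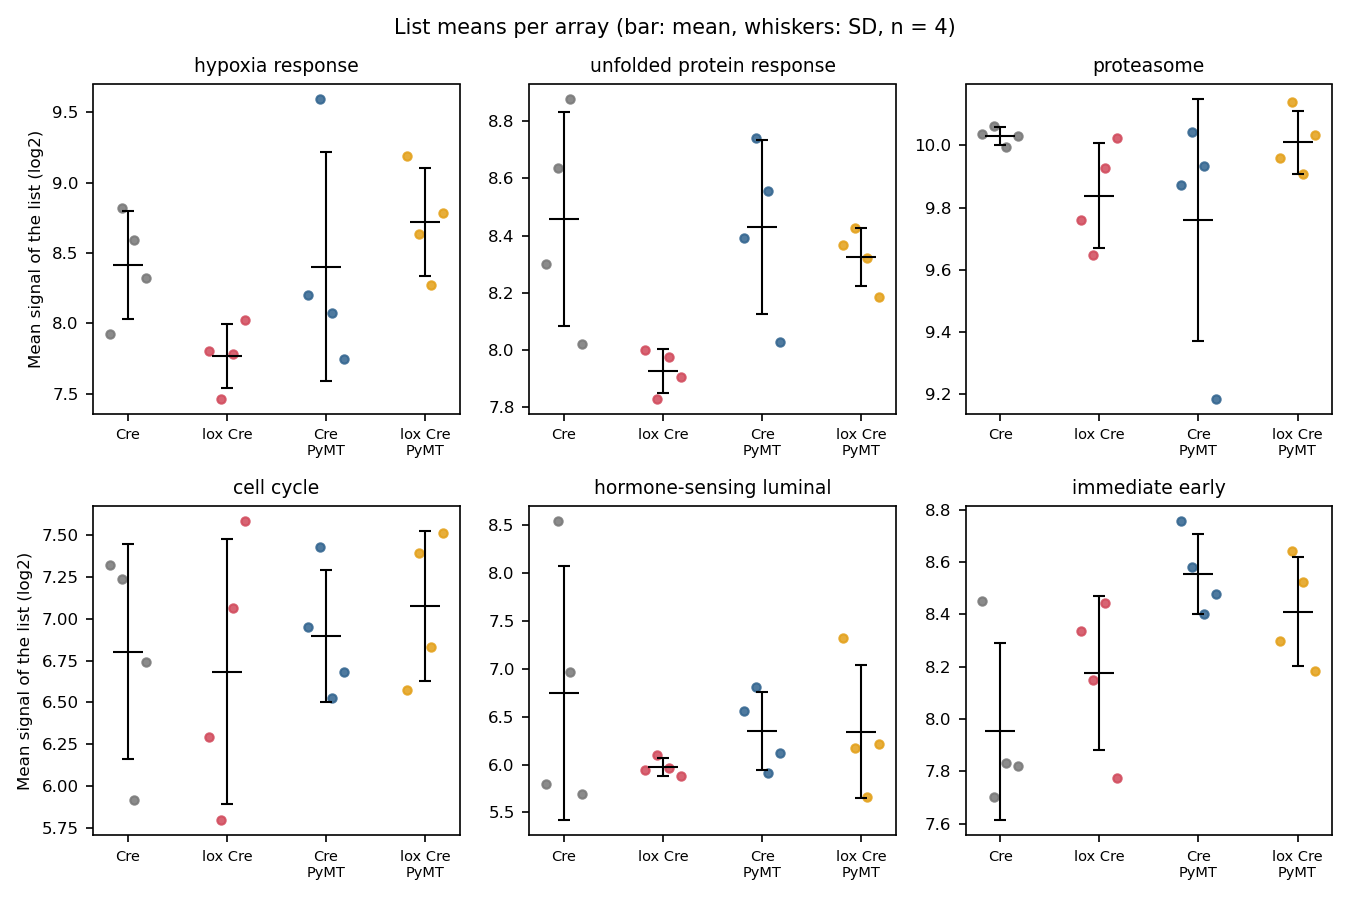
Mean signal (log2) of the tested members of 6 gene lists on each array, with the mean and SD of 4 arrays per group, named as in the plot of signals by gene. Cell cycle means on p38a_MMTV-Cre arrays run from 5.80 to 7.58, and MMTV-Cre replicate 2 has the highest hormone-sensing mean, 8.54.

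Several genes without a common list had positive estimates in all 28 settings tried, the fits of each title range included. They were chosen by their p with all 16 arrays, which these settings reuse in whole or in part. The kept sign is therefore no independent check. Slc25a33, a mitochondrial carrier of pyrimidine nucleotides, read 6.76, 7.18, 7.59 and 6.78 on MMTV-Cre arrays, 6.25, 6.58, 6.30 and 5.85 on p38a_MMTV-Cre arrays, 7.12, 8.02, 7.05 and 7.43 on MMTV-Cre_PyMT arrays and 7.90, 7.58, 7.67 and 7.71 on p38a_MMTV-Cre_PyMT arrays. Its p38a_MMTV-Cre arrays were the 4 lowest of the 16, and lox and control arrays overlapped with PyMT. The interaction of Slc25a33 was 1.14 ± 0.326, 0.77 in lower and 1.74 in higher title numbers.

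Slc20a1, a sodium-phosphate cotransporter, read 9.26, 8.81, 10.04 and 10.03 on MMTV-Cre arrays, 8.40, 6.57, 7.53 and 8.31 on p38a_MMTV-Cre arrays, 10.04, 11.04, 10.44 and 8.83 on MMTV-Cre_PyMT arrays and 10.32, 10.12, 10.30 and 10.54 on p38a_MMTV-Cre_PyMT arrays. Its 4 p38a_MMTV-Cre arrays were the lowest of all, and the control range with PyMT enclosed the lox arrays. The interaction of Slc20a1 was 2.07 ± 0.646, and 1.27 without the 2 arrays. Cycs, cytochrome c, was estimated at 0.87 ± 0.27, Nudc, a dynein cofactor, at 0.97 ± 0.285, and Ubap1, a subunit of the ESCRT-I sorting complex, at 1.07 ± 0.311. Estimates for Fbxo4, an F-box protein of a ubiquitin ligase, and Cdk5rap2, a centrosomal protein, were 0.89 ± 0.277 and 0.70 ± 0.224. Other probe sets of Ubap1 and Cdk5rap2 did not all share their sign. Nudc was estimated at 0.28 in the higher title range, Ubap1 at 0.55 and Fbxo4 at 0.41.

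Among negative interactions, 4 genes (0.0278% of those tested) had all lox arrays above all controls without PyMT and all lox arrays below all controls with PyMT, and 0 genes (0%) showed the reverse. These 4, Trim65, Stc1, Abhd13 and Pcdhb5, are named for this pattern, so it is a description. Trim65, a ubiquitin ligase that modifies the RNA sensor MDA5, had the smallest p of all genes (limma, unadjusted p = 0.000219, adjusted p = 0.992). It read 5.65, 5.19, 5.08 and 5.71 on MMTV-Cre arrays, 6.06, 6.09, 6.36 and 6.12 on p38a_MMTV-Cre arrays, 6.24, 5.54, 5.74 and 5.52 on MMTV-Cre_PyMT arrays and 5.40, 5.33, 5.26 and 5.17 on p38a_MMTV-Cre_PyMT arrays. The gap between lox and control arrays was 0.35 without PyMT and 0.12 with PyMT. The interaction of Trim65 was −1.22 ± 0.251, −1.05 among lower and −1.37 among higher title numbers and −1.32 without the 2 arrays.

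Stc1, which encodes the secreted hormone stanniocalcin, read 4.0, 3.95, 4.06 and 4.41 on MMTV-Cre arrays, 4.51, 5.0, 4.66 and 4.73 on p38a_MMTV-Cre arrays, 4.55, 4.42, 4.42 and 4.66 on MMTV-Cre_PyMT arrays and 4.36, 4.34, 4.05 and 4.31 on p38a_MMTV-Cre_PyMT arrays. The gap was 0.10 without PyMT and 0.06 with it, at signals not far above the filter of 3.67, and the interaction was −0.87 ± 0.197. Its other probe set, below the filter on low signal, had an estimate of 0.22. Abhd13, a hydrolase-fold protein, read 6.32, 6.34, 6.01 and 5.99 on MMTV-Cre arrays, 6.67, 6.40, 6.60 and 6.53 on p38a_MMTV-Cre arrays, 6.32, 6.69, 6.79 and 6.48 on MMTV-Cre_PyMT arrays and 6.06, 6.28, 6.21 and 6.13 on p38a_MMTV-Cre_PyMT arrays. Lox and control arrays were 0.06 apart without PyMT and 0.04 with it, and the interaction was −0.78 ± 0.189, with −0.53 for the lower and −1.18 for the higher title range. All 5 Abhd13 probe sets had an estimate below 0. Pcdhb5, a clustered protocadherin, was estimated at −0.41 ± 0.167, and at −0.27 without the 2 arrays. Its lox and control arrays were only 0.013 apart without PyMT and 0.0020 with it. The count of such genes was 2 with a filter at the median signal, 2 after a second quantile normalization and 1 after median centring.

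Irak1bp1, which binds the interleukin-1 receptor kinase IRAK1 and modulates NF-kB, had the second smallest p. It read 5.58, 5.29, 5.69 and 5.93 on MMTV-Cre arrays, 6.62, 6.81, 6.53 and 6.60 on p38a_MMTV-Cre arrays, 5.62, 5.62, 5.74 and 5.87 on MMTV-Cre_PyMT arrays and 5.69, 5.81, 6.01 and 5.57 on p38a_MMTV-Cre_PyMT arrays. The 4 p38a_MMTV-Cre arrays were the highest of all 16, and the other 12 arrays lay between 5.29 and 6.01. The interaction of Irak1bp1 was −0.96 ± 0.204, or −1.23 in the lower title range and −0.70 in the higher. Its other probe set, below the filter, was estimated at 0.11.

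In the NF-kB and inflammation list 8 of 26 tested genes had an estimate above 0, with a median of −0.24 (−0.30 in the lower title range, −0.08 in the higher, −0.15 without the 2 arrays). Only 1 of 10 target genes was above 0. Leaving out MMTV-Cre_PyMT replicate 1 gave a list median of −0.05 and leaving out p38a_MMTV-Cre replicate 4 gave −0.41. Cxcl1, a chemokine that attracts neutrophils, read 5.68, 5.61, 5.45 and 5.65 on MMTV-Cre arrays, 8.66, 8.26, 5.75 and 6.06 on p38a_MMTV-Cre arrays, 10.14, 7.77, 8.36 and 9.81 on MMTV-Cre_PyMT arrays and 9.56, 8.01, 8.02 and 7.20 on p38a_MMTV-Cre_PyMT arrays. Replicates 1 and 2 of p38a_MMTV-Cre, in the lower title range, were over 8, whereas replicates 3 and 4 were nearer the controls. The interaction of Cxcl1 was −2.41 ± 0.961, −3.27 among lower and −1.11 among higher title numbers. Its neighbour Cxcl2, a chemokine of the same receptor, was estimated at −2.75 ± 1.12, and at −1.76 without the 2 arrays.

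The letters of a kappaB site, GGGANNTTCC on either strand, were found in 4 of 23 list members with a window (17.4%) and 1.37% of tested genes. Both chemokines, which lie near each other on chromosome 5, held a match on each strand, offset by 1 base, and the run the pair spans is in capitals.
Cxcl1, chr5:90891095-90891244, plus strand: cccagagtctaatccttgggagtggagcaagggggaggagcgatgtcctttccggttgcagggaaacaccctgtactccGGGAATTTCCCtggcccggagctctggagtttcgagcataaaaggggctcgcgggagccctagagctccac
Cxcl2, chr5:90903749-90903898, plus strand: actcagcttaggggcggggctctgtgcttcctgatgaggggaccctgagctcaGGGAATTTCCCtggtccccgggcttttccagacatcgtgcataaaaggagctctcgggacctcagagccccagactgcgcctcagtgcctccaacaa
The 4 holders in the list had a median of −1.34 with 1 above 0, and 154 tested holders outside it had a median of −0.08 with 65 above 0. The 19 list members without the letters had a median of −0.24 with 7 above 0. Besides the 2 chemokines, which were named by their p, the holders were Nfkb2 at −0.27 and Nfkbia at 0.03, named here only as holders.

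Immediate early genes, which are transcribed within minutes of a stimulus, had 7 of 24 estimates above 0 and a median of −0.33 (−0.28 and −0.20 in the lower and higher title ranges, −0.17 without the 2 arrays). Dropping 1 array at a time gave −0.47 without MMTV-Cre replicate 1 to −0.15 without p38a_MMTV-Cre replicate 1. The group of Egr and Nr4a factors had 1 of 6 above 0, and the AP-1 factors 2 of 8. Egr1, a zinc finger factor induced by ERK signalling, read 9.78, 7.75, 7.32 and 7.99 on MMTV-Cre arrays, 10.86, 10.50, 11.68 and 10.82 on p38a_MMTV-Cre arrays, 10.94, 9.86, 11.25 and 11.13 on MMTV-Cre_PyMT arrays and 10.74, 11.29, 11.46 and 10.91 on p38a_MMTV-Cre_PyMT arrays. The 4 MMTV-Cre arrays were the lowest of all 16, and the other groups overlapped one another. The interaction of Egr1 was −2.45 ± 0.639, with −1.54 for the lower and −3.66 for the higher title range. Egr2 and Ier2 were estimated at −1.51 ± 0.536 and −1.13 ± 0.513.

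The other genes of smallest p with a negative interaction have no list in common. Tsc22d3, the glucocorticoid-induced leucine zipper, read 7.63, 6.29, 7.25 and 6.99 on MMTV-Cre arrays, 7.99, 8.38, 7.96 and 7.87 on p38a_MMTV-Cre arrays, 8.94, 8.91, 8.40 and 8.80 on MMTV-Cre_PyMT arrays and 7.21, 8.39, 8.50 and 7.86 on p38a_MMTV-Cre_PyMT arrays. Without PyMT all lox arrays were above all controls, and with PyMT lox replicate 3 alone was above a control array, replicate 3. The interaction of Tsc22d3 was −1.78 ± 0.415, or −2.31 in the lower title range and −1.01 in the higher, and all 3 probe sets had an estimate below 0.

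Igf1, insulin-like growth factor 1, read 5.96, 5.21, 5.78 and 6.49 on MMTV-Cre arrays, 8.18, 7.81, 6.83 and 6.75 on p38a_MMTV-Cre arrays, 5.46, 5.38, 6.83 and 5.84 on MMTV-Cre_PyMT arrays and 5.39, 5.32, 5.61 and 5.04 on p38a_MMTV-Cre_PyMT arrays. The 4 p38a_MMTV-Cre arrays were above all their controls, while the PyMT groups overlapped at 5.38 to 5.61. The interaction of Igf1 was −2.07 ± 0.526, with −1.33 under array weights and −0.66 for the mean of its 4 probe sets. The 3 other probe sets, all below the filter, had estimates from −0.32 to −0.13. Ifi47, a GTPase induced by interferon, read 4.85, 4.11, 4.30 and 4.70 on MMTV-Cre arrays, 7.08, 6.65, 5.82 and 5.84 on p38a_MMTV-Cre arrays, 5.45, 4.62, 4.23 and 4.47 on MMTV-Cre_PyMT arrays and 5.43, 4.41, 4.14 and 4.10 on p38a_MMTV-Cre_PyMT arrays, with p38a_MMTV-Cre arrays above all 12 others. The interaction of Ifi47 was −2.03 ± 0.502.

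Foxs1, a forkhead factor, read 6.51, 4.84, 5.70 and 6.03 on MMTV-Cre arrays, 7.12, 7.53, 7.37 and 7.11 on p38a_MMTV-Cre arrays, 5.31, 5.11, 4.62 and 5.46 on MMTV-Cre_PyMT arrays and 4.79, 5.16, 4.96 and 5.09 on p38a_MMTV-Cre_PyMT arrays. Its p38a_MMTV-Cre arrays were the 4 highest, and its interaction was −1.63 ± 0.395, with −0.97 in the higher title range. Tbc1d14, a regulator of autophagosome formation, was estimated at −1.81 ± 0.429, though 1 of its 2 other probe sets had a positive estimate. Cat, which encodes catalase, was estimated at −1.29 ± 0.316, with −0.75 for its second probe set.

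Lists of mammary cell states had both signs. Luminal progenitors give rise to milk-producing cells, while hormone-sensing luminal cells carry the oestrogen and progesterone receptors and signal to their neighbours. Of the 8 progenitor markers 1 had an estimate above 0, and the median was −0.57 (−0.55 and −0.57 in the lower and higher title ranges, −0.62 without the 2 arrays). Leaving out 1 array gave −0.73 without MMTV-Cre_PyMT replicate 2 to −0.27 without MMTV-Cre_PyMT replicate 1.

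Kit, the stem cell factor receptor, read 7.14, 4.73, 4.96 and 6.51 on MMTV-Cre arrays, 8.03, 6.51, 7.29 and 7.10 on p38a_MMTV-Cre arrays, 6.62, 5.74, 6.75 and 5.28 on MMTV-Cre_PyMT arrays and 6.32, 6.09, 5.17 and 5.42 on p38a_MMTV-Cre_PyMT arrays. Lox and control arrays overlapped in both backgrounds, and the interaction was −1.74 ± 0.731, −1.01 among lower and −2.91 among higher title numbers. Aldh1a3, an aldehyde dehydrogenase that makes retinoic acid, was the marker of opposite sign and read 8.96, 9.38, 10.20 and 9.64 on MMTV-Cre arrays, 7.13, 8.22, 7.78 and 8.83 on p38a_MMTV-Cre arrays, 7.29, 8.34, 8.46 and 6.68 on MMTV-Cre_PyMT arrays and 8.0, 7.96, 7.54 and 8.41 on p38a_MMTV-Cre_PyMT arrays. Its 4 lox arrays were below all controls without PyMT and within the control range with PyMT, and the interaction was 1.84 ± 0.588. Itgb3, integrin beta 3, was estimated at −1.53 ± 0.998, −0.72 without p38a_MMTV-Cre replicate 2 and −0.94 without MMTV-Cre_PyMT replicate 3.

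Mammary transcription factors had 6 of 18 estimates above 0 and a median of −0.46, with −0.20 for the lower and −0.41 for the higher title range. It was −0.47 without the 2 arrays and −0.19 without MMTV-Cre replicate 2. Id2, an inhibitor of basic helix-loop-helix factors needed for lactation, read 7.41, 6.67, 6.90 and 7.47 on MMTV-Cre arrays, 7.10, 7.25, 7.88 and 7.45 on p38a_MMTV-Cre arrays, 8.25, 7.91, 8.17 and 7.86 on MMTV-Cre_PyMT arrays and 6.95, 7.88, 7.51 and 7.12 on p38a_MMTV-Cre_PyMT arrays. Lox arrays overlapped controls in both backgrounds, and the interaction was −0.99 ± 0.333. Stat3, which drives involution after weaning, and Cebpb, needed for alveolar development, were estimated at −0.50 ± 0.203 and −0.75 ± 0.499, and Cebpb at −0.49 without MMTV-Cre_PyMT replicate 4.

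Milk and secretory genes had 6 of 19 estimates above 0 and a median of −0.44 (−0.48 and −0.38 in the lower and higher title ranges, −0.32 without the 2 arrays). Only 2 of 12 milk protein genes were above 0. Wap, the whey acidic protein, read 6.27, 6.0, 6.42 and 6.03 on MMTV-Cre arrays, 5.79, 6.52, 6.28 and 6.23 on p38a_MMTV-Cre arrays, 10.41, 8.59, 8.49 and 10.63 on MMTV-Cre_PyMT arrays and 7.65, 8.42, 7.64 and 8.03 on p38a_MMTV-Cre_PyMT arrays. All 8 arrays without PyMT lay between 5.79 and 6.52, and with PyMT the 4 lox arrays were below all 4 controls. The interaction of Wap was −1.62 ± 0.579, or −1.87 in the lower title range and −0.68 in the higher. Csn1s2b, a casein, and Plin2, a lipid droplet coat protein, were estimated at −0.91 ± 0.517 and −0.57 ± 0.384. Csn1s2b had −0.45 without MMTV-Cre_PyMT replicate 1, and Plin2 had −0.37 without MMTV-Cre replicate 2. Without MMTV-Cre replicate 2 the list median was −0.17.

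Hormone-sensing genes had 9 of 11 estimates above 0 and a median of 0.83, 1.72 among lower and 0.31 among higher title numbers. That median was 0.73 without the 2 arrays of lowest correlation, 0.05 without MMTV-Cre replicate 2, 1.25 without MMTV-Cre replicate 4 and −0.01 with array weights. Pgr, the progesterone receptor, read 5.02, 8.21, 7.17 and 4.84 on MMTV-Cre arrays, 5.37, 4.96, 4.92 and 4.94 on p38a_MMTV-Cre arrays, 5.55, 5.88, 5.58 and 4.69 on MMTV-Cre_PyMT arrays and 7.49, 5.45, 4.69 and 5.67 on p38a_MMTV-Cre_PyMT arrays. MMTV-Cre replicates 2 and 3 and p38a_MMTV-Cre_PyMT replicate 1 were over 7 and the other 13 arrays below 6, and the interaction was 1.66 ± 0.955, or 1.03 without MMTV-Cre replicate 2. Prom1, a surface marker of these cells, was estimated at 1.84 ± 0.906. Wnt4, a signal downstream of progesterone, was estimated at 0.87 ± 0.713, with −0.26 in the higher title range and −0.01 with array weights. Wnt4 had 0.31 without MMTV-Cre replicate 2 and 0.43 without p38a_MMTV-Cre_PyMT replicate 1.

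Interferon response genes had 7 of 20 estimates above 0 and a median of −0.21, with −0.38 for the lower and −0.04 for the higher title range. The list median was −0.20 without the 2 arrays, −0.49 without MMTV-Cre replicate 2 and −0.03 without MMTV-Cre_PyMT replicate 1. Ifit1, an RNA-binding effector, was estimated at −0.66 ± 0.386, and the regulators Irf7 and Irf1 at −0.67 ± 0.431 and −1.18 ± 0.77. On arrays of the higher title range Ifit1 read 4.96 and 5.80 for MMTV-Cre and 5.92 and 5.33 for p38a_MMTV-Cre. With PyMT it read 5.01 on the control array there and 5.12 and 5.35 on the lox arrays. In that range the lox arrays thus averaged higher in both backgrounds. Irf7 had −0.37 without MMTV-Cre_PyMT replicate 1 and Irf1 −0.76 without MMTV-Cre replicate 3. The interferon element TTTCNNTTTC was present in 5 of 15 list members with a window (33.3%) against 3.0% of tested genes, and holders had a median of −0.14 against −0.32 for the 10 others.

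**Figure D5:**
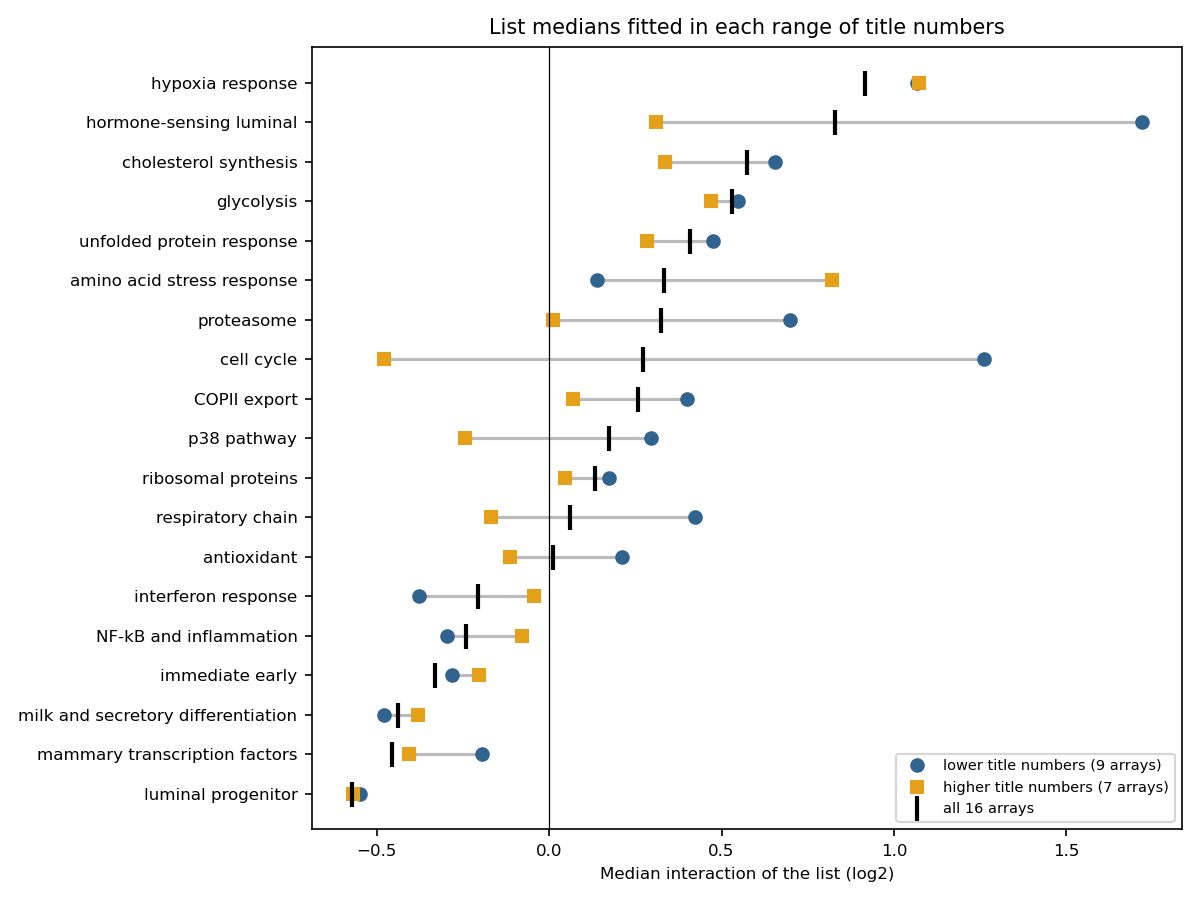
Median interaction (log2) of 19 gene lists fitted with the 9 arrays of lower title numbers (circles), with the 7 arrays of higher title numbers (squares) and with all 16 arrays (bars). The 2 ranges share the sign for 15 lists and oppose each other for the p38 pathway, cell cycle, respiratory chain and antioxidant lists.

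Markers of other cells were examined as whole lists. Of the basal markers, 10 of 12 were above the filter, 6 of 10 had an estimate above 0, and the median was 0.21, or 1.11 in the lower title range and −0.62 in the higher. Without the 2 arrays it was 0.12, and with array weights −0.15. Their mean ran from 5.77 to 7.44 on MMTV-Cre, 5.49 to 7.20 on p38a_MMTV-Cre, 7.13 to 8.05 on MMTV-Cre_PyMT and 7.38 to 8.24 on p38a_MMTV-Cre_PyMT arrays. Fibroblast markers (7 of 10 above the filter, 3 above 0) had a median of −0.24, and their mean ran from 5.44 to 6.66, 5.36 to 5.73, 5.57 to 6.92 and 5.37 to 6.79 in the same order. That median was 0.12 in the lower title range, −0.79 in the higher and −0.03 without the 2 arrays, and ran from −0.53 without MMTV-Cre replicate 1 to −0.08 without MMTV-Cre_PyMT replicate 4. Endothelial markers, all 10 above the filter, had 4 estimates above 0 and a median of −0.09, and their mean ran from 4.46 to 4.92 over all arrays. Their median was −0.13 and −0.17 in the lower and higher title ranges, −0.0085 without the 2 arrays and 0.019 without p38a_MMTV-Cre replicate 2. Macrophage and lymphocyte markers had 9 of 10 and 6 of 10 members above the filter, with 3 and 1 estimates above 0 and medians of −0.10 and −0.15. The macrophage median was −0.26 in the lower title range, 0.18 in the higher and 0.11 without the 2 arrays. The lymphocyte median was −0.34, 0.21 and 0.0025 in the same order. Neither sign held across these fits. Of 6 adipocyte markers only Fabp4, a fatty acid carrier, was above the filter, with −1.55 ± 1.60 on all arrays, 0.77 in the lower and −5.00 in the higher title range. The part of other cell types in the interactions above was not tested.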

How the data were processed

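RNA of sorted luminal mammary cells was measured on 16 Affymetrix arrays. The authors deposited log2 signals made with RMA, per the submitters' processing notes, and the sources used here give neither its version nor its settings. RMA quantile-normalises arrays, so differences in total RNA cannot be read from them. The number of arrays limits the precision.

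Of 45141 probe sets, 29449 had a platform annotation, 28898 with 1 symbol and 551 with several, which were left out. By gene ID 28689 matched RefSeq (GRCm38.p6). Each of 17097 genes took the probe set of highest mean, and 14410 whose mean reached a filter of 3.67, the 25th percentile over probe sets, were tested. One limma 3.58.1 model in R 4.3.3 covered all 16 arrays (12 residual and 2.83 prior degrees of freedom), with a two-sided moderated interaction contrast. The threshold was a Benjamini-Hochberg adjusted p of 0.05 over all tested genes. The procedure was tested on simulated data.

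Named genes are Mapk14, Runx1, the 10 genes of smallest p in each direction, genes of opposite separation and up to 3 members of smallest p per list, passing over transcripts without an established name; genes outside this rule are said to be so or are markers. The genes, lists and comparisons were chosen with earlier results of these data known, so no list was tested. Title numbers were split at their largest gap. Alternatives were other filters, the mean of probe sets, trend and robust eBayes, a second quantile normalization, median centring, array weights, title range as a block or fitted alone, unlogged signal for lists, and leaving out single arrays or the 2 of lowest correlation; counts of opposite separation with arrays left out were added after seeing the data. Promoter windows came from RefSeq, and figures were drawn with matplotlib 3.10.9.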

Additional observations from a re-analysis of the deposited data

Results flagged for a closer look

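Among the combinations examined here, 1 array stood far from the other 3 of its group. The mean of the interferon response list was 6.953 on MMTV-Cre replicate 2, where the other MMTV-Cre arrays lay between 5.615 and 5.772. It was the only such array in 168 combinations of gene or list and group examined, and chance alone flags about 1 in 20 groups of this size. Without that array the median interaction of the interferon list was −0.49, against −0.21 with it. Not every gene named above was among these combinations, and some of the others also had an array that stood apart. On p38a_MMTV-Cre_PyMT replicate 1, Sec13 read 8.17, against 8.86 to 8.89 on the other 3 arrays of its group. Wnt4 read 7.97 on the same array, against 6.14 to 6.30. Pcna read 8.27 on MMTV-Cre replicate 3, against 8.85 to 8.89 on the rest of its group. Lman1 read 10.76 on p38a_MMTV-Cre_PyMT replicate 2, against 10.30 to 10.36. Bnip3 read 11.61 on MMTV-Cre_PyMT replicate 2, against 8.54 to 9.05. These are examples and not a full count.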

How the results depend on the processing

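The count of genes called by limma was 0 in all 28 settings. The smallest adjusted p was 0.992 with all arrays and ran from 0.0884 (higher title range alone, 7 arrays) to 1.0 over the alternatives. The 10 genes of smallest p in each direction kept their sign in every setting that tested them. They were chosen with all arrays, which these settings reuse, so this is no independent check of their sign. No paired analysis was possible because the labels carry no replicate numbers. Genes of opposite separation numbered 2 with a filter at the median, 2 after a second quantile normalization, 1 after median centring and 4 to 11 with 1 array left out, where fewer arrays make separation easier.

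List medians moved as follows, and the cause was not tested. The median of the 2882 genes of highest signal moved as well. It was 0.37 in the lower title range, −0.12 in the higher, −0.011 with array weights and 0.02 without the 2 arrays of lowest correlation. For the 2882 genes of mean signal 6.39 to 7.78 it was 0.38, −0.32, −0.13 and −0.06 in the same order. In the lower title range alone, hormone-sensing genes had 1.72, mammary transcription factors −0.20, cell cycle 1.26, respiratory chain 0.42 and proteasome 0.70. In the higher range alone, the p38 pathway had −0.24, cell cycle −0.48, amino acid stress response 0.82, respiratory chain −0.17 and proteasome 0.012. With array weights, hormone-sensing genes had −0.0098 and cholesterol synthesis −0.10. Without the 2 arrays of lowest correlation, COPII export had −0.017 and cholesterol synthesis 0.041. The mean of all probe sets gave mammary transcription factors −0.28, and unlogged signal gave antioxidant genes −0.018. Marker lists moved to 1.11 (basal), −0.26 (macrophage), −0.34 (lymphocyte) and 0.77 (adipocyte, Fabp4 alone) in the lower range and to −0.62 (basal), −0.79 (fibroblast), 0.18 (macrophage), 0.21 (lymphocyte) and −5.0 (adipocyte) in the higher. Without the 2 arrays macrophage markers had 0.11 and lymphocyte markers 0.0025, and lymphocyte markers had 0.0077 with array weights. With 1 array left out, medians ran from 0.11 to 0.82 for cholesterol synthesis and from −0.52 to −0.19 for mammary transcription factors.

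Besides Fabp4 in the lower title range, estimates of 6 genes named by rule took the opposite sign. These were Mapk14 in the lower title range (0.80), and in the higher title range Runx1 (−0.40), Lman1 (−0.20), Wnt4 (−0.26), Aurkb (−0.48) and Ddit4 (−0.41). Runx1 had −0.12 with the mean of probe sets, and with array weights Wnt4 had −0.0098 and Aurkb −0.19. The higher range rests on 1 MMTV-Cre_PyMT array. With 4 arrays per group, the median standard error of 0.311 limits what these estimates can show.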

Other observations

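Antioxidant genes had no common sign. Of 13 tested genes 7 had an estimate above 0, and the median was 0.01, 0.21 among lower and −0.11 among higher title numbers and −0.05 without the 2 arrays of lowest correlation. With 1 array left out it ran from −0.20 without MMTV-Cre replicate 2 to 0.19 without p38a_MMTV-Cre_PyMT replicate 1. Gclm, a subunit of the first enzyme of glutathione synthesis, had an interaction of 1.44 ± 0.693, and 0.89 without MMTV-Cre replicate 3. Nqo1, a quinone reductase, had −1.17 ± 0.659, so these 2 targets of the factor NRF2 had opposite estimates, and neither passed limma's test (adjusted p = 0.992).

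Cd68, a lysosomal protein of macrophages, had an estimate of 1.97 ± 0.792, the only positive one with an unadjusted p under 0.05 among 9 tested macrophage markers; it was singled out after its value was seen. The complement genes C1qa, C1qb and C1qc, also macrophage markers, had estimates of −0.20, −0.09 and −0.40.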
